A study of Mus musculus with 12 samples.

Results

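Transcripts of the colon were compared between mice lacking IL4i1 and wild type mice. The 6 arrays, of 12 in the series, were chosen by their genotype labels, 3 IL4i1 knockout and 3 wild type, and the features were the 19572 of 22206 probes that carry a gene name in the platform annotation, which stand for 19505 genes. All animals were healthy males aged 12 to 16 weeks. The IL4i1 knockout mice lacked IL4i1 alone, LAO1 knockout mice lacked LAO1 alone, double knockout mice lacked both, and wild type mice kept both; LAO1 knockout and double knockout arrays, 3 each, were used only to place the IL4i1 results. No source used here gives how the alleles were made or the strain background. The labels' protocols describe 4 randomly chosen mice per genotype, while each genotype has 3 arrays. No source used here says that each array held 1 mouse, so a p-value reflects how far these samples differ, and part of that may be technical.

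IL4i1 is a secreted L-amino acid oxidase. It turns aromatic amino acids, above all phenylalanine, into keto acids and releases ammonia and hydrogen peroxide. In the mouse it is made mainly by antigen-presenting cells and B cells, and it is known for damping T cell responses and for feeding tryptophan products to the aryl hydrocarbon receptor. LAO1 is a related oxidase, known in the mouse from milk. The study placed the pair beside the kynurenine route of tryptophan use, whose first enzyme is IDO1.

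The values are the authors' log2 levels, in which a difference of 1 is a doubling. Across the 12 arrays the lower quartile of all probes lay between 3.64 and 3.88 and the upper quartile between 7.95 and 8.2, so a level under about the lower quartile is dim. The tissue matched its label: the list of absorptive colonocyte genes averaged 12.11 to 13.67 in IL4i1 knockout arrays and 12.88 to 13.13 in wild type arrays, and the list of goblet cell and mucus genes 12.7 to 13.41 in knockout and 13.4 to 13.46 in wild type arrays. The small intestine list averaged 5.92 to 6.56 in knockout and 6.14 to 6.21 in wild type arrays. IL4i1 knockout replicate 2 stood apart from the rest. It lay at 68.94 on the first principal component, which held 20.2% of the variance, against -40.03 to 20.75 for the other 11 arrays. It also had the lowest goblet cell and mucus mean of all arrays (12.7) and the highest smooth muscle mean (13.17, against 11.58 to 12.71 on the others). Values without it are therefore given for several, but not all, of the list results that it moved. Double knockout replicate 2 stood apart as well, with a mean of 13.69 for the pancreatic acinar list, against 4.18 to 4.89 on the other arrays. Its part in the double knockout results was not tested, and the counts that lead there are also given without it. Leaving it out of the fit, a choice made after seeing the data, left 4 probes past the threshold against wild type: Sh3d19, Mcpt1, Mcpt2 and Cpa3.

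The knocked-out gene itself had no probe of that name and was not analysed here, so the IL4i1 genotype rests on the labels. Lao1 was dim in both groups, with log2 levels of 2.98, 3.33 and 3.16 in IL4i1 knockout arrays and 3.24, 3.12 and 2.64 in wild type arrays. The groups overlapped, and the difference was 0.16 (SE 0.22, limma adjusted p = 0.893).

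In the IL4i1 knockout the mucosal mast cell proteases Mcpt1 and Mcpt2 fell to dim levels and Sh3d19 rose. These were the only 3 of 22206 probes past an adjusted p of 0.05 (0.0135% of probes), 1 higher (0.0045%) and 2 lower (0.00901%). At an unadjusted p under 0.05 there were 721 higher (3.25%) and 963 lower (4.34%), together 7.58% of probes. The 2 groups did not overlap at 2472 probes (11.1%).

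Mcpt1 and Mcpt2 encode chymase-like serine proteases stored in the granules of mucosal mast cells, and Cpa3 encodes the carboxypeptidase stored beside them. The promoters of Mcpt1 and Cpa3 are shown because these genes stood among the lowest by p and share a short element of the kind bound by GATA factors, which are needed for mast cell development. Both are RefSeq sequences of build GRCm38.p6, from 250 bases before to 50 bases after the start, in the gene's direction; Mcpt1 lies at chr14:56017714-56018013 on the plus strand and Cpa3 at chr3:20242132-20242431 on the minus strand. The letters GATAA, searched on both strands, are in capitals.
Mcpt1: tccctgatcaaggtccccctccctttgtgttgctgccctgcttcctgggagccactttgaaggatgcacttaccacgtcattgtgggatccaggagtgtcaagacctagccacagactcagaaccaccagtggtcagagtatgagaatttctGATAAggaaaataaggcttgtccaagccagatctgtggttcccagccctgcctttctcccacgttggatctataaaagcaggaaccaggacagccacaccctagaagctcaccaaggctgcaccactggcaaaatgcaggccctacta
Cpa3: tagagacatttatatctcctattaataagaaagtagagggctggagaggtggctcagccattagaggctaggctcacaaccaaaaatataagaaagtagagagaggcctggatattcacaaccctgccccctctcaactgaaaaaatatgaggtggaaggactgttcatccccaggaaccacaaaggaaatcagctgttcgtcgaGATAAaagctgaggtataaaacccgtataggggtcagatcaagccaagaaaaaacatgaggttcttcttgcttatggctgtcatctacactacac
GATAA was found in 25.4% of all 32851 promoters of the table. It was found in 10 of the 16 promoters (62.5%) of the mast cell and eosinophil list, which belong to 14 genes. A match describes the letters and is not evidence of binding.

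Mcpt1 had log2 levels of 2.88, 3.26 and 3.95 in IL4i1 knockout arrays, against 12.3, 9.68 and 11.58 in wild type arrays. The knockout levels were near the dim end of the range and the wild type levels high, with no overlap. Mcpt1 fell by 7.82 on the log2 scale (SE 0.6, limma adjusted p = 6.75e-05), a 226-fold difference of the means that rests on dim knockout levels. Mcpt2 stood at 3.11, 3.5 and 3.43 in IL4i1 knockout arrays and at 8.47, 6.07 and 6.73 in wild type arrays. Every knockout array was again dim and below every wild type array, and Mcpt2 fell by 3.74 (SE 0.5, adjusted p = 0.0317), a 13.4-fold difference of the means that also rests on dim knockout levels. Its call was lost, with adjusted p up to 0.181, when any single IL4i1 knockout array or wild type replicate 3 was left out, and in a fit of the 6 arrays alone (0.162), while Mcpt1 passed in all 15 alternative settings. In bulk tissue, fewer mast cells and less protease RNA per mast cell cannot be told apart.

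Further granule and mast cell genes did not pass the test. Cpa3 stood at 3.53, 3.76 and 3.78 in IL4i1 knockout arrays and at 7.16, 5.54 and 6.46 in wild type arrays. The groups did not overlap, but the difference of -2.7 (SE 0.43) missed the threshold (adjusted p = 0.0709; 0.0315 to 0.374 over the alternative settings). Kit, the receptor that mast cells and the pacemaker cells of the gut wall both carry, had 11.8, 10.11 and 11.18 in IL4i1 knockout arrays and 12.23, 12.09 and 11.85 in wild type arrays, with a difference of -1.03 (adjusted p = 0.628). Genes of connective tissue mast cells were dim in both groups: the differences were -0.64 for Mcpt4, 0.31 for Cma1 and -0.26 for Tpsb2. Cma2, a further chymase gene that is on no list and was picked after its values were seen, stood at 3.39, 4.74 and 4.42 in IL4i1 knockout arrays and at 6.22, 5.87 and 5.43 in wild type arrays (difference -1.66, adjusted p = 0.356). Of the 18 measured genes of the mast cell and eosinophil list, 2 fell and none rose; 4 were lower and 0 higher at an unadjusted p under 0.05 (background 7.69% of named genes in both directions), and the list median was -0.1, against 0.02 for all named genes. These 4 were Mcpt1, Mcpt2, Cpa3 and Kit.

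Set against the other knockouts, the IL4i1 knockout had the lowest protease means of the 4 genotypes. Mcpt1 had 6.68, 7.55 and 8.02 in LAO1 knockout arrays and 11.77, 12.95 and 13.41 in double knockout arrays. The levels of the 4 genotypes thus ran, from low to high, IL4i1 knockout, LAO1 knockout, wild type, double knockout, and the wild type and double knockout arrays overlapped. The IL4i1 knockout was lower than the LAO1 knockout by 4.05 (adjusted p = 0.0668, not past the threshold) and lower than the double knockout by 9.35 (adjusted p = 1.47e-05). Mcpt2 differed by -1.17 from the LAO1 knockout (adjusted p = 0.843) and was 4.63 lower than in the double knockout (adjusted p = 0.000882), and Cpa3 was 2.72 lower than in the double knockout (adjusted p = 0.0115).

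**Figure D1:**
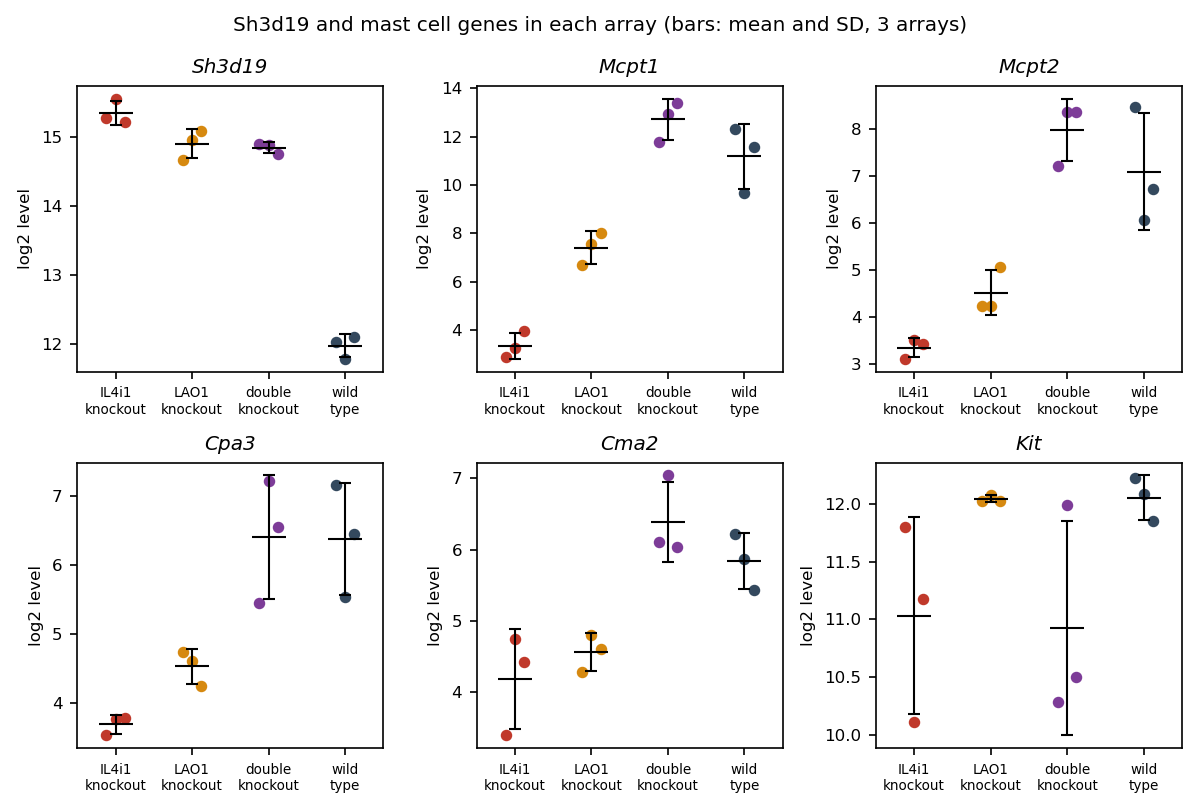
Log2 level of Sh3d19 and 5 genes of mast cells (vertical axes) on each of the 3 arrays of every genotype (horizontal axis), with horizontal marks for the mean and bars for 1 SD. Mcpt1 and Mcpt2 lie lowest on the IL4i1 knockout arrays, and Sh3d19 is high in all 3 knockouts and low in wild type.

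Sh3d19 encodes an adaptor with SH3 domains that binds membrane sheddases of the ADAM family. It had log2 levels of 15.28, 15.55 and 15.21 in IL4i1 knockout arrays and 12.03, 11.79 and 12.11 in wild type arrays. The replicates lay within a narrow band in each group and the groups were far apart. Sh3d19 rose by 3.37 (SE 0.19, adjusted p = 3.04e-06), 10.3-fold, and passed in all 15 alternative settings. LAO1 knockout arrays held 14.67, 14.96 and 15.08 and double knockout arrays 14.9, 14.89 and 14.75, so all 9 knockout arrays lay above all 3 wild type arrays. The IL4i1 knockout differed by 0.44 from the LAO1 knockout (adjusted p = 0.843) and by 0.5 from the double knockout (adjusted p = 0.399). In RefSeq's gene order (GRCm38.p6) the 50 nearest measured genes on each side of Sh3d19 held 0 genes past the threshold, with 6 higher and 4 lower at an unadjusted p under 0.05 (10% of 100, against 7.69% of all named genes).

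The next genes by p did not pass the threshold, and their values are descriptions. On the higher side stood Fam83e (1.33), the protease inhibitor Csta1 (1.22), Fam161a (0.99), the clock output factor Dbp (2.08), the imprinted noncoding RNA Ipw (2.16), the carbonic anhydrase-related Car11 (1.29), the flavin monooxygenase Fmo2 (1.05), the repressor Hes2 (1.09), the oxysterol-binding Osbpl1a (1.25), the phospholipase Plce1 (1.17) and the secreted defence protein Wfdc2 (1.4), with adjusted p between 0.0689 and 0.406. On the lower side stood the urokinase gene Plau (-2.18), the checkpoint ligand Cd274 (-1.87), the lectin Lgals9 (-1.79), the interferon-induced GTPase Irgm2 (-2.96), the dehydrogenase Dhrs7 (-1.2), the fatty acid desaturase Fads1 (-1.64), B2m (-1.76), the lipid kinase Pi4k2b (-1.37) and Mier3 (-1.71), beside Cpa3, with adjusted p between 0.0709 and 0.155. Fam83e, the closest on the higher side, had 14.77, 15.03 and 14.42 in IL4i1 knockout arrays and 13.57, 13.45 and 13.2 in wild type arrays, and Plau had 6.03, 5.01 and 6.26 in IL4i1 knockout arrays and 7.88, 7.97 and 8 in wild type arrays. Neither pair of groups overlapped.

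**Figure D2:**
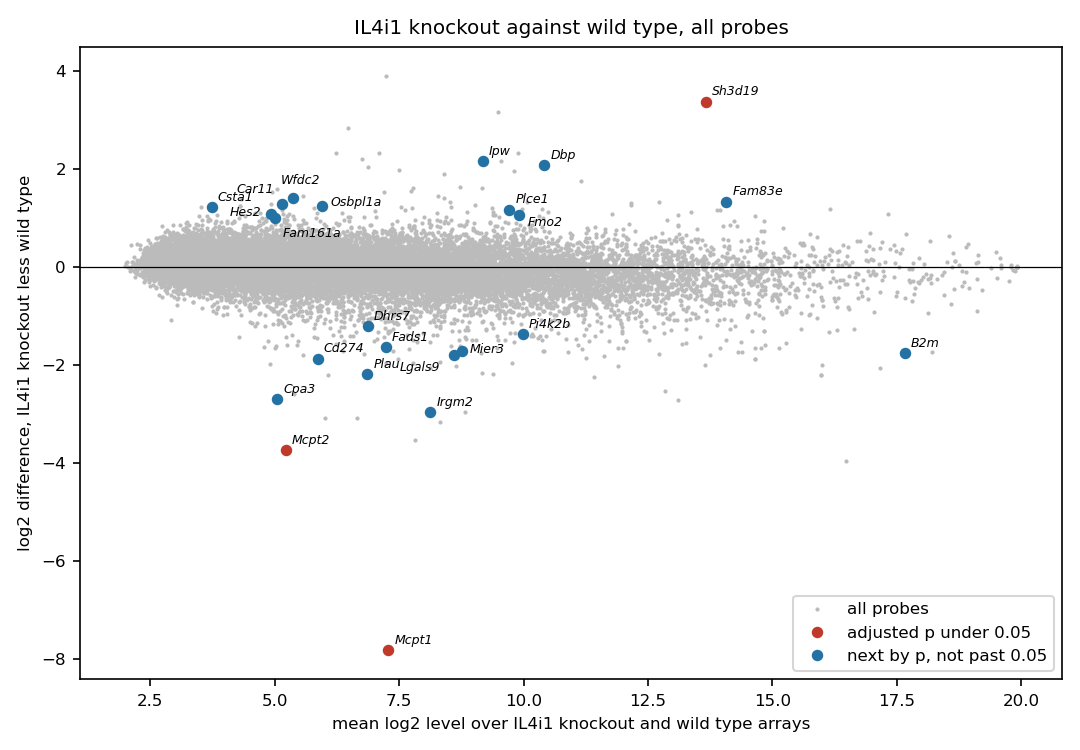
Log2 difference, IL4i1 knockout less wild type (vertical axis), against the mean log2 level over the 6 arrays (horizontal axis) for all 22206 probes in grey. Red points are Sh3d19, Mcpt1 and Mcpt2, which passed an adjusted p of 0.05; blue points are the next genes by p in each direction, which did not.

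In direct tests against the LAO1 knockout, none of these 12 higher and 12 lower genes passed limma's adjusted threshold (background 0.0045% of probes). Of them, 10 and 9 had an unadjusted p under 0.05, where 5.84% of all probes did. Against the double knockout, 3 of the 12 higher genes passed (Ipw, Car11 and Wfdc2) and 9 of the 12 lower genes (Mcpt1, Mcpt2, Cpa3, Cd274, Lgals9, Irgm2, Fads1, B2m and Pi4k2b), where 0.477% of all probes passed, 0.0901% higher and 0.387% lower. Without double knockout replicate 2 these counts were 2 and 8, and 174 probes in place of 106 passed. In a fit of the 6 compared arrays alone the counts were 0 and 6. The count of higher genes was 1 without IL4i1 knockout replicate 1, IL4i1 knockout replicate 2 or double knockout replicate 1. These tests use the same IL4i1 knockout arrays that chose the genes. The effect of losing IL4i1 itself differed, past limma's adjusted threshold, between mice that kept LAO1 and mice that lacked it for 10 of 26 genes named by rule, where 0.23% of all probes did; the IL4i1 knockout against wild type contrast that chose the genes is part of that difference. Over all probes, 1 differed between the single knockouts: Rhbdl2, which encodes a membrane protease of the rhomboid family, with 8.9, 9.88 and 9.51 in IL4i1 knockout arrays and 6.97, 6.07 and 6.98 in LAO1 knockout arrays. These groups did not overlap, and Rhbdl2 was higher by 2.76 in the IL4i1 knockout (adjusted p = 0.0168). That call was lost in a fit of these 6 arrays alone and without LAO1 knockout replicate 2 or 3 or IL4i1 knockout replicate 2 or 3 (adjusted p between 0.0672 and 0.16). It was chosen after its values were seen.

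Interferon-induced genes stood lower in the IL4i1 knockout without any of them passing the test. Interferons signal inside cells through STAT factors, which switch on GTPases against intracellular microbes, antiviral enzymes, and the machinery that loads peptides on MHC molecules. Promoters of 4 of these genes are shown because they carry the letters of the elements those factors are known to bind, TTTC, any 2 bases and TTTC again for the interferon-stimulated response element, and TTCNNNGAA for the gamma-activated site. The sequences are RefSeq's (GRCm38.p6), with the same span as above, and both motifs were searched on both strands; a match on the other strand appears as its reverse complement. Irgm2 lies at chr11:58214727-58215026 (plus strand), Gbp7 at chr3:142530086-142530385 (plus), B2m at chr2:122147437-122147736 (plus) and Lgals9 at chr11:78984875-78985174 (minus). Capitals mark both motifs.
Irgm2: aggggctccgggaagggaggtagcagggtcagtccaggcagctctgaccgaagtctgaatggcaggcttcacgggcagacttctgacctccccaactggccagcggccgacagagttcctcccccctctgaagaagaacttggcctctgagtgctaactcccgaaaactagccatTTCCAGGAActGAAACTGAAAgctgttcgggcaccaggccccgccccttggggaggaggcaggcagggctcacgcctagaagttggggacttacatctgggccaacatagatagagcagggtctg
Gbp7: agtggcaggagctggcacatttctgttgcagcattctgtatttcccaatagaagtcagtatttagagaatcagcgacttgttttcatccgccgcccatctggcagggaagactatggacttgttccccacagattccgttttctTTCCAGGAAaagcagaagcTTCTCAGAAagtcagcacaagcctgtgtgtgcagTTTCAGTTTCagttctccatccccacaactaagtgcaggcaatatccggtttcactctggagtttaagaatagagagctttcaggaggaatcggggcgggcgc
B2m: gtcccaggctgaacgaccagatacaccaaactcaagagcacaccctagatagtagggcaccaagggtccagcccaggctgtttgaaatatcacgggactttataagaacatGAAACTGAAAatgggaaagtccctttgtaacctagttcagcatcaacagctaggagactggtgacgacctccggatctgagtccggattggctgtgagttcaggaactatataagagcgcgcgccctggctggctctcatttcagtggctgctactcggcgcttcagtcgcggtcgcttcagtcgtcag
Lgals9: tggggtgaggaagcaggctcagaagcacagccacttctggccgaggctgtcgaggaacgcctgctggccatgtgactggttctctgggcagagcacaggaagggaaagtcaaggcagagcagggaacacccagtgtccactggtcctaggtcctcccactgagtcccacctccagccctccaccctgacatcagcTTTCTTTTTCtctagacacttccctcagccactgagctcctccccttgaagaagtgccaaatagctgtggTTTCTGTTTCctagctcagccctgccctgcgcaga
The interferon response list had 31 promoters, which belong to 24 genes. The paired TTTC motif was found in 14 of these promoters (45.2%), against 3.44% of all promoters. TTCNNNGAA was found in 10 of them (32.3%), against 8.3%. B2m and Lgals9 held the first motif alone. No factor's binding was measured.

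Of the 31 measured genes of the interferon response list, 0 passed the adjusted threshold in limma's test and 15 were lower and 0 higher at an unadjusted p under 0.05, where 7.69% of named genes had such a p. The list median was -0.71, against 0.02 for all named genes, and 28 of the 31 differences were negative. The mean of the list was 5.84, 5.97 and 5.86 in IL4i1 knockout arrays and 6.38, 6.73 and 7.22 in wild type arrays. The knockout arrays were tightly grouped and below all wild type arrays, which themselves spanned a range of levels. Without wild type replicate 3, the highest, 11 members were lower at that p and the median was -0.59; without IL4i1 knockout replicate 2 the values were 16 and -0.82.

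Among the GTPases, Irgm2 had 7.09, 5.99 and 6.84 in IL4i1 knockout arrays and 8.52, 9.61 and 10.68 in wild type arrays. Iigp1 had 4.75, 3.87 and 4.79 in knockout arrays and 5.12, 7.62 and 9.93 in wild type arrays (difference -3.09, adjusted p = 0.52), so its difference depended on how far the wild type arrays were spread. The guanylate-binding protein Gbp7 had 8.18, 7.84 and 8.66 in knockout arrays and 9.19, 9.78 and 10.17 in wild type arrays (difference -1.49, adjusted p = 0.406). All 3 genes had knockout arrays below every wild type array, as did 18 of the 31 list genes. Over all probes the groups did not overlap at 11.1%, in either direction. Igtp, a further GTPase of the list, had a difference of -1.6 with overlapping groups. The antiviral synthetase-like gene Oasl2 had 8.13, 8.43 and 7.95 in knockout arrays and 8.96, 9.44 and 9.98 in wild type arrays, again without overlap (difference -1.29, adjusted p = 0.353). Not every interferon gene was low: Ifit3 stood at 0.3, Mx2 at 0.07 and Oas2 at 0.04. The difference for the interferon gene Ifng was 0.33 (adjusted p = 0.803), and for the chemokine Cxcl9 it was -1.51 (adjusted p = 0.774), with overlapping groups for both.

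Antigen presentation genes, many of them known interferon targets, stood lower as well. Of 14 MHC class I genes, 7 were lower and 0 higher at an unadjusted p under 0.05, with a median of -0.63. The background, here and for class II, was 7.69% of named genes in both directions. None of the class I genes passed the adjusted threshold. B2m, the light chain of every class I molecule, had 17.18, 16.36 and 16.8 in IL4i1 knockout arrays and 18.08, 18.28 and 19.25 in wild type arrays. The peptide transporter subunit Tap1 had 7.15, 6.68 and 7.44 in knockout arrays and 8.44, 9.12 and 9.91 in wild type arrays (difference -2.07, adjusted p = 0.484). Neither gene overlapped between the groups, and 6 of the 14 class I genes had every knockout array below wild type (11.1% of probes did not overlap, in either direction). Of 10 MHC class II genes, 4 were lower and 0 higher at that p (median -0.75): the chain genes H2-Eb1 (-1.34), H2-Ab1 (-1.37) and H2-Aa (-1.47) and the peptide exchange factor H2-DMa (-1.03). H2-Eb1 had 9.6, 8.8 and 9.07 in knockout arrays and 10.84, 10.23 and 10.41 in wild type arrays. The class II mean of IL4i1 knockout replicate 2 was the lowest of all arrays (5.83), and without that array the class II median was -0.35 with 3 members lower and 1 higher at that p, so the class II difference rested in part on it; the class I median without it was -0.52 with 5 lower.

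**Figure D3:**
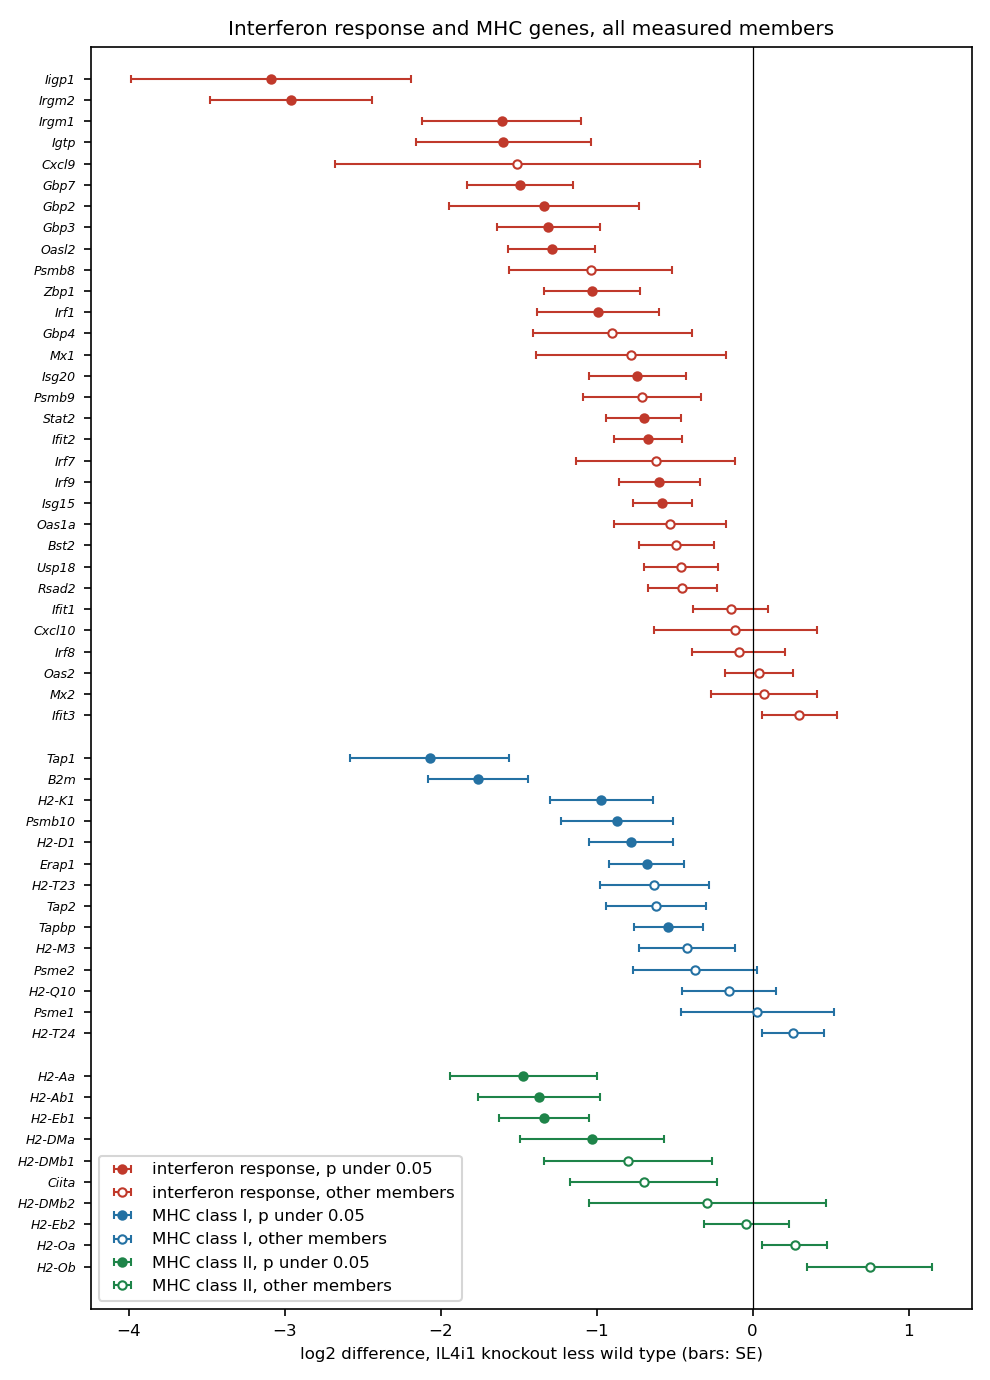
Log2 difference, IL4i1 knockout less wild type (horizontal axis), with its SE, for all 31 interferon response, 14 MHC class I and 10 MHC class II genes measured (rows). Filled points have an unadjusted p under 0.05 and open points do not; none passed the adjusted threshold, and most points lie left of 0.

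Interferon and MHC genes of the IL4i1 knockout were also set against the other knockouts. Against the double knockout, 14 of the 31 interferon response genes, 6 of the 14 MHC class I genes and 4 of the 10 MHC class II genes were lower past limma's adjusted threshold (background 0.387% of probes lower), with list medians of -1.44, -1.56 and -2.08. These counts depended on single arrays: they were 15, 8 and 6 without double knockout replicate 2, 11, 3 and 2 without its replicate 1, 10, 3 and 2 without its replicate 3, and 9, 3 and 3 without IL4i1 knockout replicate 2. Without IL4i1 knockout replicate 3 they were 11, 3 and 3, and in a fit of the 6 compared arrays alone 9, 2 and 2. The mean of the interferon list was 7.54 to 8.32 in double knockout arrays. Against the LAO1 knockout, 0 genes of the interferon list passed, 0 had an unadjusted p under 0.05 (background 5.84%), and the median was -0.2; its mean there was 5.93 to 6.39, a range that the highest IL4i1 knockout array reached. The MHC class I and II lists also had 0 genes past the threshold there. They had 1 and 0 lower at that p, with medians of -0.23 and -0.19. The LAO1 knockout itself stood below the same wild type arrays. Its medians for the interferon, class I and class II lists were -0.47, -0.3 and -0.52. At that p 10, 4 and 3 of their genes were lower, where 312 of 19505 named genes were. Irgm2 was 5.1 lower in the IL4i1 knockout than in the double knockout (adjusted p = 0.000701), Gbp3 3.31 lower (adjusted p = 0.000701) and Tap1 4.41 lower (adjusted p = 0.00127).

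Ido1, the first enzyme of the kynurenine route and itself an interferon target, had 4.36, 4.72 and 5.01 in IL4i1 knockout arrays, against 3.4, 5.93 and 7.91 in wild type arrays. The wild type arrays enclosed the knockout arrays, and the mean difference was -1.05 (SE 1.34, adjusted p = 0.878), but 0.03 without wild type replicate 3. In double knockout arrays Ido1 reached 14.85, 7.88 and 11.14, which was 6.59 higher than in the IL4i1 knockout by the mean (adjusted p = 0.0523). Of 15 measured tryptophan and kynurenine genes, 1 was higher (Haao, 0.69, adjusted p = 0.642) and 0 lower at an unadjusted p under 0.05 (background 7.69% of named genes in both directions), and the median was 0.18. The phenylalanine and tyrosine genes, which act on these amino acids or on products made from them, had 1 of 12 higher and 4 lower at that p: Fah (0.71) against Hpd (-1.51), Got1 (-0.77), Got2 (-0.83) and Gstz1 (-0.54). Hpd had 11.84, 9.36 and 11.69 in knockout arrays and 12.3, 12.63 and 12.49 in wild type arrays, and without IL4i1 knockout replicate 2 the 4 lower genes became 0. Leaving out wild type replicate 1, wild type replicate 2 or IL4i1 knockout replicate 3 gave 2, 1 or 2 lower genes. Aryl hydrocarbon receptor targets had 1 of 13 lower and 0 higher, with a median of -0.12.

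Genes of macrophages, monocytes and dendritic cells also stood lower by their median. Of 28 measured, 10 were lower and 0 higher at an unadjusted p under 0.05 (background 7.69% of named genes in both directions, here and for the lists that follow), 0 passed the adjusted threshold, and the median was -0.4. The monocyte chemokine Ccl8 had 5.48, 4.34 and 5.07 in IL4i1 knockout arrays and 8.42, 6.83 and 6.25 in wild type arrays (difference -2.2, adjusted p = 0.52). The groups did not overlap. The monocyte chemokine receptor Ccr2 had a difference of -0.99, the complement gene C1qa -1.05 and the growth factor receptor Csf1r -1.38, all 3 with knockout arrays below all wild type arrays. That held for 9 of the 28 list genes, where the groups did not overlap at 11.1% of probes in either direction. Other members overlapped, such as Mrc1 (-1.11). The list mean was 5.45, 5.03 and 5.44 in knockout arrays and 6.15, 5.83 and 5.57 in wild type arrays; without IL4i1 knockout replicate 2 the count was 5 of 28, and leaving out wild type replicate 1 or 2 gave 4 or 6. Of the defining macrophage genes, Adgre1 had a difference of -0.35 and Mertk of 0.14. T and innate lymphoid genes had 1 of 22 higher and 1 lower (median 0.01). The lower gene, Itgae (-0.66), is also on the list of macrophages, monocytes and dendritic cells and is counted in both. Neutrophil genes had 1 of 16 higher and 1 lower (median 0.1), and inflammatory cytokines and chemokines 0 of 35 higher and 1 lower, Ccl8 (median 0.02). B cell genes had 0 of 15 in either direction, with all 15 differences positive (median 0.33) and the highest list mean of all arrays in IL4i1 knockout replicate 1 (5.91); without that array the median was 0, and without IL4i1 knockout replicate 2 it was 0.69. Plasma cell genes had 0 of 12 higher and 1 lower (median -0.61), with a list mean of 6.82 to 8.05 in knockout arrays and 7.76 to 8.92 in wild type arrays, which overlapped; the lowest of all arrays was IL4i1 knockout replicate 2, without which the median was -0.35 with 0 lower. Leaving out IL4i1 knockout replicate 1 gave a median of -0.85 with 4 lower, wild type replicate 1 one of -0.31 with 0 lower, and wild type replicate 3 one of -0.85 with 5 lower.

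Among cholesterol and fatty acid synthesis genes, 7 of 23 measured were lower and 0 higher at an unadjusted p under 0.05 (background 7.69% of named genes), and none passed the adjusted threshold; 22 differences were negative and that of Fasn was 0, and the median was -0.47. Malic enzyme Me1, which supplies reducing power for fat synthesis, had 8.62, 9.26 and 8.47 in IL4i1 knockout arrays and 10.24, 10.2 and 9.32 in wild type arrays (difference -1.14, adjusted p = 0.52). Sterol pathway enzymes Cyp51 (-1.52) and Fdps (-0.89) and the desaturase Scd1 (-2.02) had the same sign. Me1 did not overlap between the groups and Cyp51 did. The list mean was 10.43, 9.49 and 9.91 in knockout arrays and 10.91, 10.62 and 10.03 in wild type arrays, with overlap, and the lowest was IL4i1 knockout replicate 2; without it 4 of 23 were lower and the median was -0.25. The count was also 4 without wild type replicate 1 or 2, and 12 without wild type replicate 3 or IL4i1 knockout replicate 1. Against the LAO1 knockout 9 of the 23 were lower at that p (background 3.24% of probes lower), with a median of -0.54, and against the double knockout 9 (background 5.17%; 4 without double knockout replicate 2) with a median of -0.61, none past the adjusted threshold. Without IL4i1 knockout replicate 2 each of these counts was 4, with medians of -0.39 against the LAO1 knockout and -0.35 against the double knockout.

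**Figure D4:**
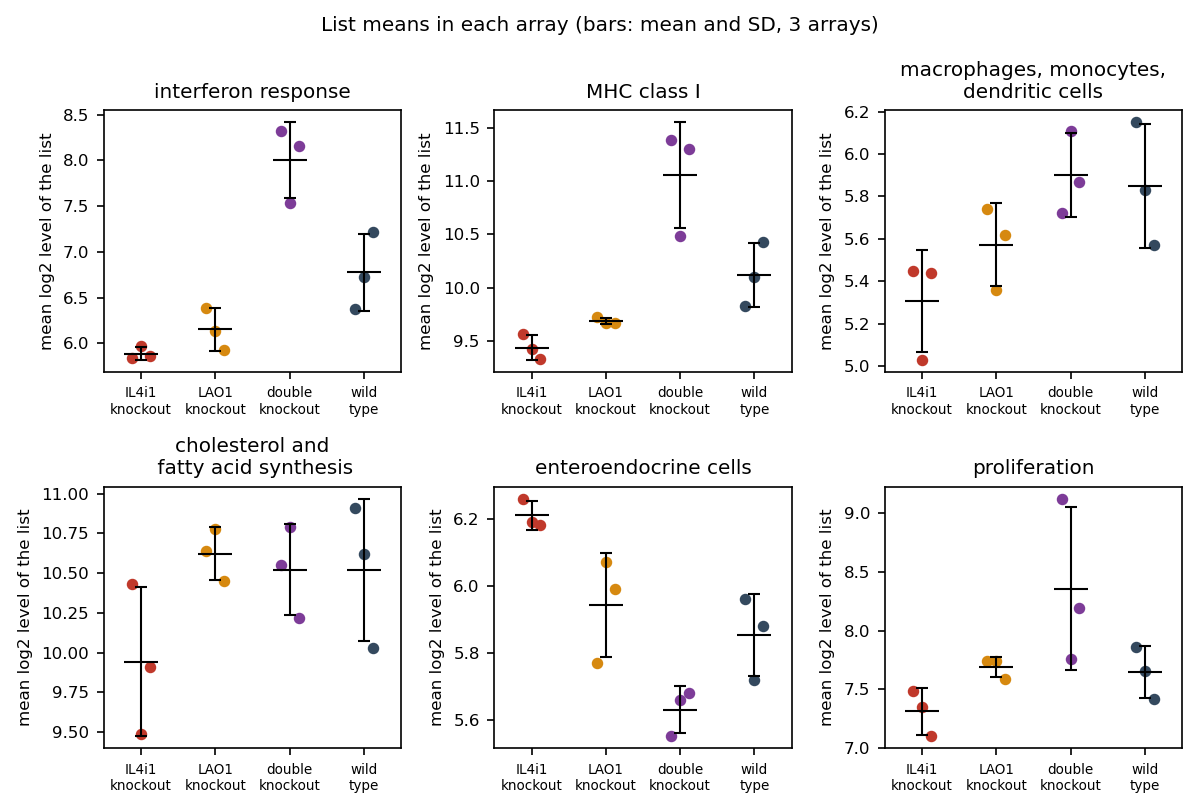
Mean log2 level of 6 gene lists (vertical axes) on each of the 3 arrays of every genotype (horizontal axis), with horizontal marks for the mean and bars for 1 SD. The IL4i1 knockout has the lowest interferon response and MHC class I group means and the highest enteroendocrine group mean.

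Clock genes were split. The repressor-arm and output genes Dbp, Per2, Per3, Ciart and Nr1d1 were higher, and the activator Arntl lower, at an unadjusted p under 0.05, 5 of 18 higher and 1 lower (median 0.31), where 7.69% of named genes had such a p in either direction. Dbp had 11.79, 10.82 and 11.74 in IL4i1 knockout arrays and 9.07, 9.43 and 9.61 in wild type arrays. Arntl had 7.36, 7.16 and 6.59 in knockout arrays and 9.23, 8.59 and 7.73 in wild type arrays (difference -1.48, adjusted p = 0.468). The groups did not overlap for either gene. Arntl was lower than in wild type by 1.41 in the LAO1 knockout and 2.48 in the double knockout, comparisons that share the wild type arrays. In them the clock list had 4 higher and 2 lower at that p in the LAO1 knockout (median 0.21; 285 higher and 312 lower of 19505 named genes). The double knockout had 5 higher and 4 lower (median 0.26; 706 and 759 of 19505). Between the IL4i1 and LAO1 knockouts the list median was 0.02. No source used here gives the time of day of collection. Immediate early and heat shock genes of the IL4i1 knockout had 1 of 26 higher and 6 lower than wild type at that p, against the background of 7.69% (median -0.24): Hspa1b, an inducible heat shock chaperone, had 7.3, 7.22 and 7.5 in knockout arrays and 8.73, 12.79 and 9.38 in wild type arrays. Wild type replicate 2 was far above the other arrays in it. Without that array the list median was 0.01, with 2 higher and 5 lower. Against the same wild type arrays, the LAO1 knockout had 7 list genes lower (median -0.59) and 0 higher, where 312 of 19505 named genes were lower. The double knockout had 8 lower (median -0.07) and 0 higher, where 759 of 19505 were lower.

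Dbp, Car11 and Fam83e also lie on the chromosome of Il4i1, chromosome 7. In RefSeq's gene order (GRCm38.p6) they are measured genes 55, 54 and 57 after Il4i1, a grouping seen after the values were known. Car11 had 5.52, 5.91 and 5.93 in IL4i1 knockout arrays and 4.19, 4.53 and 4.77 in wild type arrays, without overlap (adjusted p = 0.155), and LAO1 knockout arrays had 4.12, 4.77 and 4.42. The 50 nearest measured genes on each side of Il4i1, a span that ends before these 3 genes, held 0 past the threshold. Of them, 5 were higher and 3 lower at an unadjusted p under 0.05, 8% of 100 and near the background of 7.69%. The 100 nearest on each side, which include the 3 genes, held 0 past the threshold, with 10 higher and 6 lower (8% of 200). Saa1 (2.16) and Saa2 (1.41), 82 and 83 after Il4i1, were among the higher. The nearest to Il4i1 at that p were Vrk3, 2 before, and Med25, 3 after, both at -0.86 (adjusted p = 0.52 for both).

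The epithelial and muscle lists had medians closer to 0 than the interferon and MHC lists, and none of their genes passed the adjusted threshold. Their counts at an unadjusted p under 0.05 stand against a background of 7.69% of named genes in both directions. Enteroendocrine genes had 2 of 25 higher and 0 lower (median 0.29), and the list mean was 6.26, 6.19 and 6.18 in IL4i1 knockout arrays, above 5.96, 5.72 and 5.88 in wild type arrays. The hormone gene Tac1 (1.55) and the granule protein gene Scg2 (0.75) led it, both short of the threshold (adjusted p = 0.622 and 0.595). Tac1 is also on the enteric neuron and glia list and is counted in both. Goblet cell and mucus genes had 0 of 23 higher and 4 lower (median -0.26), among them Retnlb, an antiparasitic goblet cell protein, with 15.8, 18.2 and 18.04 in knockout arrays and 18.96, 19.1 and 19.16 in wild type arrays. Replicate 1 of the knockout was lowest for Retnlb, while without replicate 2 the list had 3 higher and 3 lower. Antimicrobial and acute phase genes had 3 of 24 higher (Wfdc2, Saa1 and Saa2) and 1 lower (Retnlb). Proliferation genes had 0 of 28 higher and 5 lower (median -0.26), such as Mki67 with 13.87, 12.56 and 12.92 in knockout arrays and 15.36, 14.77 and 14.2 in wild type arrays. The list was split, with 17 negative and 11 positive differences, the latter including Mcm6 (0.66) and Mcm4 (0.63). Without IL4i1 knockout replicate 3 that list had 1 higher and 2 lower (median -0.14), and without wild type replicate 1 it had 2 higher and 3 lower. Smooth muscle genes had 1 of 21 higher and 0 lower (median 0.3); the median was 0.03 without IL4i1 knockout replicate 2, and without replicate 1 it was 0.55 with 6 higher. Enteric neuron and glia genes had 2 of 22 higher and 0 lower (median 0.3), and 1 higher without IL4i1 knockout replicate 2 (median 0.07).

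Further metabolic lists were counted at the same p and against the same background. Amino acid and amine oxidases had 1 of 17 higher and 1 lower (median 0.09), and the list of enzymes that make or clear superoxide and peroxide 1 of 26 higher and 0 lower (median -0.08). That gene was Noxo1 (0.69, adjusted p = 0.538), which encodes an organiser of an NADPH oxidase. Amino acid transporters had 0 of 23 higher and 2 lower (median -0.16), and targets of ATF4, a factor of the amino acid shortage response, 1 of 21 higher and 3 lower (median -0.36). Oxidative phosphorylation had 0 of 32 higher and 2 lower (median -0.08), and ribosome biogenesis 1 of 24 higher and 0 lower (median 0.26). Markers of tissue beside the gut were counted too. Pancreatic acinar genes had 0 of 21 in either direction, with list means of 4.5 to 4.85 in knockout arrays and 4.36 to 4.84 in wild type arrays, and adipocyte genes 0 of 14 higher and 2 lower (median -0.47), with 5.91 to 7.17 in knockout arrays and 6.74 to 7.01 in wild type arrays. The adipocyte values rested on single arrays: without IL4i1 knockout replicate 2 the median was -0.12 with 0 lower, and without replicate 1 it was -0.75 with 7 lower. Each remaining list is in the plot of all lists.

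**Figure D5:**
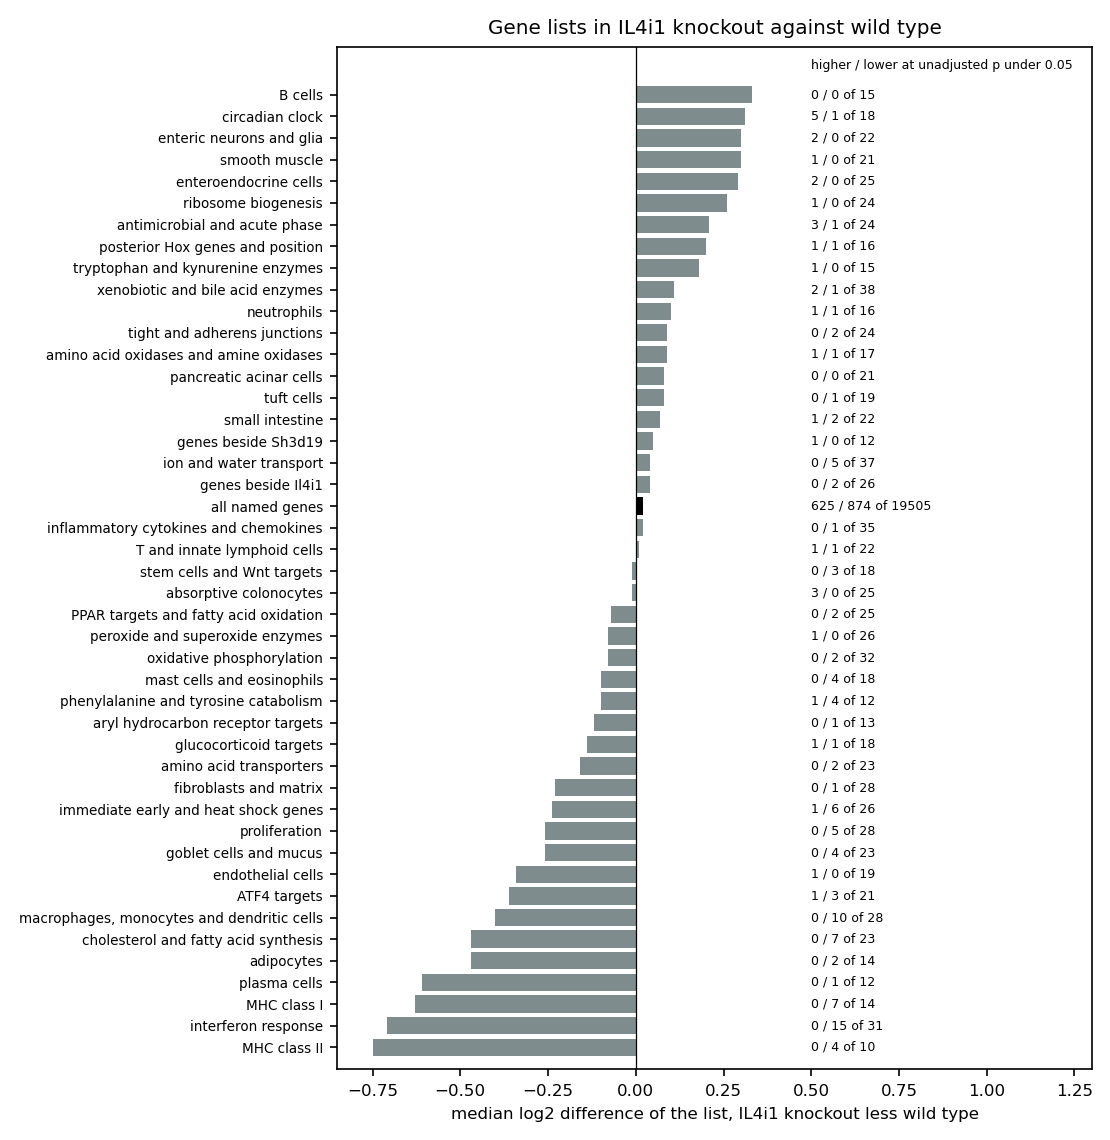
Median log2 difference, IL4i1 knockout less wild type (horizontal axis), of the 44 gene lists and of all named genes (black bar), with the number of members higher and lower at an unadjusted p under 0.05 of those measured. MHC class II, interferon response and MHC class I genes have the lowest medians, and B cell and clock genes the highest.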

How the data were processed

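RNA of 12 colon samples from male mice was hybridised to Affymetrix arrays. The labels' protocols name ISOGEN II for extraction and 6 µg of biotin-labelled input. Transcriptome Analysis Console is named, unversioned, in the submitters' processing notes. The authors deposited log2 values, from 1.72 to 19.93, used here as deposited; no source used here gives their summarisation, normalization or genome build, and no detection calls were used. The number of arrays limits the precision.

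Groups came from the genotype labels. Differences were tested in limma 3.58.1 (R 4.3.3; lmFit and eBayes) in 1 fit over 12 arrays, a mean per genotype, with two-sided p-values adjusted by Benjamini-Hochberg over 22206 probes and a threshold of 0.05. The test was tried on simulated data. Gene names are those of the platform annotation and may be outdated; lists used the brightest probe per gene. The members, the 44 gene lists and the tests were chosen with earlier results of these data known.

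Named were Il4i1, Lao1, Sh3d19, Ido1, the genes past the threshold filled up to 12 per direction by p, and list members at an unadjusted p under 0.05 or among the 3 smallest; other names are single examples chosen after their values were seen. Alternatives covered the variance model, quantile normalization, centring, a dim-probe filter (40th percentile), array weights, a replicate block, only the compared arrays, and leaving out arrays. Replicate numbers were not found to pair the samples (correlations of deviations 0.18, -0.011 and 0.0096). Arrays correlated at 0.964 to 0.99 and no 2 were copies.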

Additional observations from a re-analysis of the deposited data

Results flagged for a closer look

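For 10 of the 26 genes named by rule, the effect of losing IL4i1 differed between mice that kept LAO1 (IL4i1 knockout less wild type) and mice that lacked it (double knockout less LAO1 knockout). Most of the 26 were chosen by their p in IL4i1 knockout against wild type. That contrast is part of the difference, so the count is not independent of the choice. The difference of the 2 effects was tested in the same limma fit, a contrast added after the data were seen, and 51 of 22206 probes passed, 5 higher and 46 lower; without double knockout replicate 2, whose pancreatic acinar genes stood apart, 74 passed, with the same 10 genes among them. Among mast cell genes the difference of effects was -13.12 for Mcpt1 (adjusted p = 1.6e-05), since the effect was -7.82 with LAO1 and 5.29 without it, -7.2 for Mcpt2 (-3.74 with LAO1, 3.46 without) and -4.57 for Cpa3 (-2.7 and 1.88). For interferon-linked genes it was -7.2 for Irgm2 (-2.96 and 4.23), -3.84 for B2m (-1.76 and 2.08), -3.5 for Cd274 (-1.87 and 1.63) and -3.38 for Lgals9 (-1.79 and 1.59), and for the desaturase Fads1 it was -2.71 (-1.64 and 1.07). For Sh3d19 it was 3.43: the gene was 3.37 higher with LAO1 present and differed by -0.06 without it. Sh3d19 was already high in the LAO1 knockout, from which the second effect is taken. For Fam161a it was 1.54 (0.99 and -0.55). The cause was not tested.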

How the results depend on the processing

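Sh3d19 and Mcpt1 passed in all 15 alternative settings, Mcpt2 in 8 and Cpa3 in 3. The 3 probes past the threshold against wild type became 8 with trend and robust options, 11 with array weights and 2 to 5 when 1 array was left out. Against the LAO1 knockout, 1 became 3 with trend and robust options, array weights or the replicate block, 2 with centred arrays, 0 with only the 6 compared arrays and 0 to 4 when 1 array was left out. Against the double knockout, 106 became 166 with the replicate block, 33 with only the compared arrays and 46 to 174 when 1 array was left out. With the replicate block, 3 passed against wild type, 1 higher and 2 lower, with Sh3d19 and Mcpt1 among them and Mcpt2 not. List genes at an unadjusted p under 0.05 numbered 127 and became 202 with array weights. With 1 array left out, the Lao1 difference ran from -0.02 to 0.28 and the Ido1 difference from -2.22 to 0.03, both turning sign without wild type replicate 3. Of 2492 gene values over 167 genes, 2463 kept direction and side, 7 lost a call, 20 gained one and 2 turned sign; 33 of 660 list medians moved by more than 1 SD. Signal near the bottom of the range limits levels of Mcpt1, Mcpt2 and Cpa3 in the IL4i1 knockout.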
